A study of Mus musculus with 15 samples.

Results

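The genes described here are 42 interferon response genes, measured by bulk RNA sequencing in mouse primary hepatocytes. They were chosen by name: 6 transcription factors, 15 antiviral effectors and sensors, 6 genes of the ISG15, ubiquitin and ADP-ribose systems, 8 GTPases, 6 antigen-processing genes and the chemokine Cxcl9. Earlier results of these data were known when they were chosen, so member counts set beside shares of all genes are descriptions only. Each of the 42 symbols was found once among the 24347 entries of the deposited table, and all 42 passed the filter on low values. The 15 libraries fell into 5 groups of 3: cAMP + IL-13, cAMP, glucagon + IL-13, glucagon and vehicle. All cells came from wild-type mice, male and young adult per the study's methods. The methods give BALB/c unless noted, whereas the labels name other strains, so the strain is unresolved. Cells of the IL-13 groups received 10 ng/mL recombinant interleukin-13 (IL-13) for 2 h, and 100 µM cAMP or 100 nM glucagon was then added for 3 h with IL-13 still present. Vehicle cells had neither stimulus nor IL-13, and no group had IL-13 without a stimulus. An effect of IL-13 on the response to a stimulus and one that needs no stimulus therefore cannot be told apart. Nothing in the labels tells whether the replicates of a group were separate mice or separate cultures. The p-values therefore measure the spread of the libraries at hand, and that spread may be technical only.

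Interferons are cytokines of the antiviral defence. Type I interferons act through the receptor chains IFNAR1 and IFNAR2, the kinases JAK1 and TYK2 and a complex that contains STAT2 and IRF9 and binds the interferon-stimulated response element (ISRE). Interferon gamma acts through IFNGR1, IFNGR2, JAK1 and JAK2 on STAT dimers that bind the gamma-activated site (GAS), and IRF1 is a classical target of that route. Hepatocytes respond to both kinds of interferon. Glucagon raises cAMP in hepatocytes, and IL-13, a type 2 cytokine, acts through IL4RA and IL13RA1 and mainly STAT6. For the suppression of G6pc and Pck1 by IL-13 in hepatocytes, the paper proposes STAT3 instead. There, knockdown of Stat3 blocked the suppression and knockdown of Stat6 did not.

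Recovered reads per library summed to between 15567637 and 24245665. Values are given as scaled reads, which are estimated reads multiplied by 1 factor per library (between 0.7975 and 1.249 scaled reads for each read). In vehicle library a, 86 of 8250 well-measured genes were more than 2-fold below the mean of the other vehicle libraries, against at most 11 genes in any other library, so the counts that rest on vehicle are also given without it. Hepatocyte markers were abundant in every library (Alb, 538991 to 631120 scaled reads). Of the 8 hepatocyte markers, Hnf4a (0.62), Cps1 (0.54) and Ttr (0.31) were higher with cAMP than with vehicle on the log2 scale. None of the 8 was lower. With glucagon, Hnf4a alone was higher (0.39) and none was lower. IL-13 lowered Hnf4a (-0.27 with cAMP, -0.28 with glucagon) and, with cAMP, Cps1 (-0.35), and it raised none of the 8. All 10 Kupffer cell markers averaged at least 10 scaled reads over the 15 libraries. Their sum was 5236 to 5505.9 with cAMP + IL-13 and 5697.6 to 6165.6 with cAMP. It was 5498.4 to 5562.8 with glucagon + IL-13, 5756 to 5855.2 with glucagon and 5498 to 5747.8 with vehicle. Among them Csf1r was higher with cAMP than with vehicle (0.28), and Cd68 was lower when IL-13 was added to cAMP (-0.23). With glucagon, and with IL-13 added to glucagon, none of the 10 passed. The lymphocyte markers Cd3e, Cd3g, Cd79a, Ms4a1, Nkg7, Gzma and Klrb1c stayed at 0 to 3.61 scaled reads in every library. None of the 4 dendritic cell markers averaged 10 scaled reads over the 15 libraries. The sum of the 6 sinusoidal endothelial markers was 1489.1 to 1499.9 with cAMP + IL-13, 1508.4 to 1528.5 with cAMP, 1326.4 to 1377.9 with glucagon + IL-13, 1301.3 to 1480.6 with glucagon and 1016.9 to 1311.1 with vehicle. Its genes did not move together: with cAMP Lyve1 (0.68), Cdh5 (0.51) and Pecam1 (0.26) were higher than with vehicle and Kdr was lower (-0.54), and IL-13 raised Pecam1 (0.59 with cAMP, 0.53 with glucagon) and lowered Lyve1 (-0.54 and -0.64) and, with glucagon, Kdr (-0.53), on the log2 scale. With glucagon, Pecam1 alone of the 6 was higher than with vehicle (0.37) and none was lower. Of the 4 stellate cell markers 3 were tested, and none passed with a stimulus or with added IL-13. Their sum was 196.66 to 229.38 with cAMP + IL-13 and 227.17 to 262.79 with cAMP. It was 175.98 to 207.33 with glucagon + IL-13, 208.62 to 276.12 with glucagon and 145.87 to 232.86 with vehicle. Of the 4 cholangiocyte markers 2 averaged at least 10 scaled reads, and the sum of the list was 1036.5 to 1105.4 with cAMP + IL-13, 914.45 to 951.6 with cAMP, 1336.4 to 1583.9 with glucagon + IL-13, 1027.3 to 1168.6 with glucagon and 971.79 to 1231.5 with vehicle. Krt19 (-0.97) and Sox9 (-0.26) were lower with cAMP than with vehicle, and Sox9 was higher when IL-13 was added to glucagon (0.47). The leukocyte gene Ptprc, at 34.7 to 67.4 scaled reads over the libraries, was lower when IL-13 was added to glucagon (-0.57, adjusted p = 0.0463). The part of these cells in the results below was not tested. In such bulk samples, fewer cells of a type and less RNA per cell cannot be told apart.

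Start-site windows of the members were searched for interferon and cAMP motifs. RefSeq windows (build GRCm38.p6, 250 bases before to 50 bases after the start) were found for 34 members, and Tap2, Mx2, Parp14, Gbp6, Iigp1, Oas2, Usp18 and Parp9 had none in the table used. On either strand, the ISRE core GAAANNGAAA was in 16 of the 34 windows (47.1%), against 3.99% of the 27025 genes with a window. The GAS form TTCNNNGAA was in 11 members (32.4%), against 9.55% of all genes. The form with the wider spacing that STAT6 prefers, TTCNNNNGAA, was in 7 members (20.6%), against 8.01% of all genes. The cAMP response element TGACGTCA was in 0 of 34 members, against 2.03% of all genes. Matches of different motifs overlapped in 2 members (Bst2 and Oas1a). A match is a description of letters and not evidence of a bound factor.

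The 250 bases before the start are printed for Irf1 and for 3 immunity-related GTPases of chromosome 11, because their transcripts fell with both stimuli and because Igtp, Irgm1 and Irf1 were among the members that IL-13 moved. Capitals mark the GAS form in Irf1, the GAS form followed by the ISRE core in Igtp and Irgm2, and overlapping ISRE cores in Irgm1. The Irf1 window is chr11:53769764-53770013 (plus strand), that of Igtp chr11:58199306-58199555 (plus), that of Irgm2 chr11:58214727-58214976 (plus) and that of Irgm1 chr11:48871421-48871670 (minus).
Irf1: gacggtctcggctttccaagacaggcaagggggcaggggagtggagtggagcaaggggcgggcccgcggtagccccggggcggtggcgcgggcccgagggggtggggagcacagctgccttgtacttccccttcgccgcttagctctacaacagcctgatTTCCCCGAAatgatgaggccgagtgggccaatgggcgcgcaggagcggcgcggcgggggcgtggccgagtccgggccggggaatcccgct
Igtp: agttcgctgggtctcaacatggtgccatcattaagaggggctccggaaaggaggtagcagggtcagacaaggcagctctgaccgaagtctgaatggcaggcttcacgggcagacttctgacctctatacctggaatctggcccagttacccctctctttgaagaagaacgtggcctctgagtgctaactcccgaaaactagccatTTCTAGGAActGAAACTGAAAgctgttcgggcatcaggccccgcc
Irgm2: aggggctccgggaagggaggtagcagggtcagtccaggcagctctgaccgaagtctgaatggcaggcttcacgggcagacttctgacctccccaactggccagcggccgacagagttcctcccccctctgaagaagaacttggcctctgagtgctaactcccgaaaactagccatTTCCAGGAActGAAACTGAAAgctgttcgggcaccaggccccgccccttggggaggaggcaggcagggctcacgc
Irgm1: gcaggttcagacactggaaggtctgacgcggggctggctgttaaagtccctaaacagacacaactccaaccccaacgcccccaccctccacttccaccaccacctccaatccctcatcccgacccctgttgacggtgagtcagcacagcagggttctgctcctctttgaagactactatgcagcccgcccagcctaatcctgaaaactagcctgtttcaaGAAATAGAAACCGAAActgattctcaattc
Igtp and Irgm2 are neighbours, with 7384 bases between the end of the one gene and the start of the other, and their windows share an identical stretch of 55 bases.

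In vehicle cells the members covered a wide range of levels per transcript length. B2m, the light chain of MHC class I, stood highest at 2472 ± 175 FPKM (SD, n = 3), followed by the tetherin gene Bst2 (653 ± 43.8), the ubiquitin-like modifier Isg15 (161 ± 12.0), the induction factor Irf7 (139 ± 3.87) and the oligoadenylate synthetase-like gene Oasl1 (97.9 ± 4.89). Each of these 5 stood apart from the next in the order, with no overlap between libraries. In all, 32 members averaged at least 10 FPKM and 10 averaged less. Among the 41 neighbouring pairs of the order, 27 overlapped between libraries, and the order within those pairs was not tested. The least abundant member was Oas2, at 11.5 to 26.3 scaled reads over the 15 libraries.

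**Figure D1:**
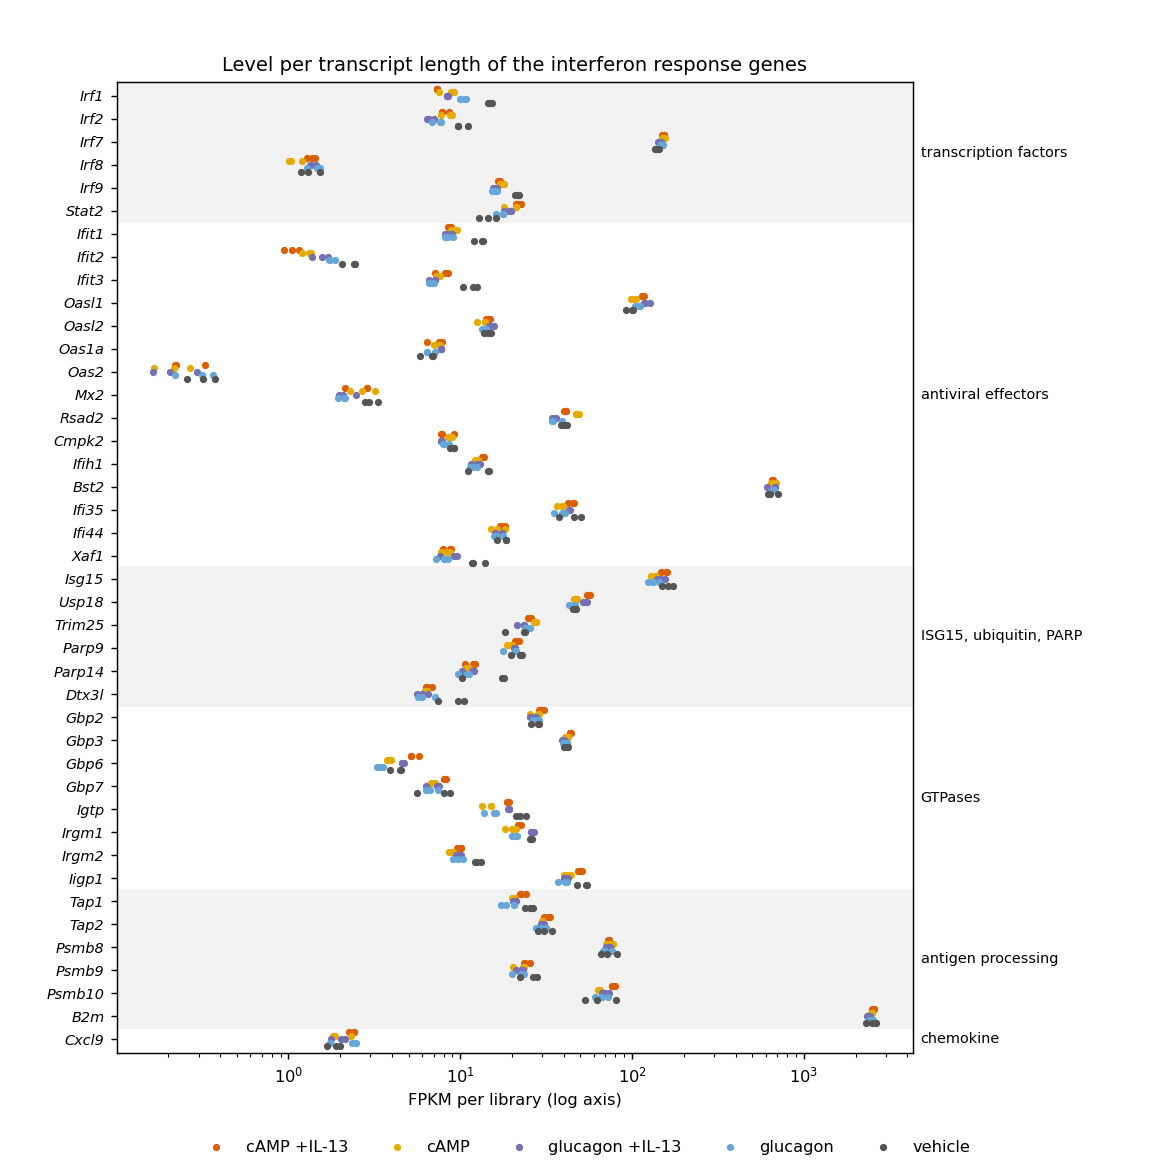
FPKM (log axis) of the 42 members in each of the 15 libraries, coloured by group and ordered by role. The members span from under 1 FPKM (Oas2) to over 1000 FPKM (B2m), and levels differ more between genes than between groups.

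Both stimuli lowered a subset of the members. With cAMP, 15 of 42 members were lower and 4 were higher than with vehicle (limma, Benjamini-Hochberg adjusted over 12703 genes), whereas 12.8% of all genes tested were lower and 13% were higher. With glucagon, 17 were lower and 1 was higher, whereas 9.53% of all genes were lower and 9.35% were higher. The median member changed by -0.18 with cAMP and -0.14 with glucagon on the log2 scale, beside 0.01 and 0.02 for all genes tested. Both comparisons use the same vehicle libraries, so the values of the 2 stimuli are given side by side and are not independent. The same 15 members were lower in both comparisons, and 21 of 42 members passed the threshold in neither. The matching joint shares of all genes were not counted, so these 2 counts have no background beside them. Without vehicle library a, 18 members were lower and 4 were higher with cAMP, and 17 were lower and 0 were higher with glucagon. Over all genes, leaving that library out gave 1862 lower and 1806 higher with cAMP, against 1624 and 1648 with it, and 1601 lower and 1497 higher with glucagon, against 1211 and 1188 with it.

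**Figure D2:**
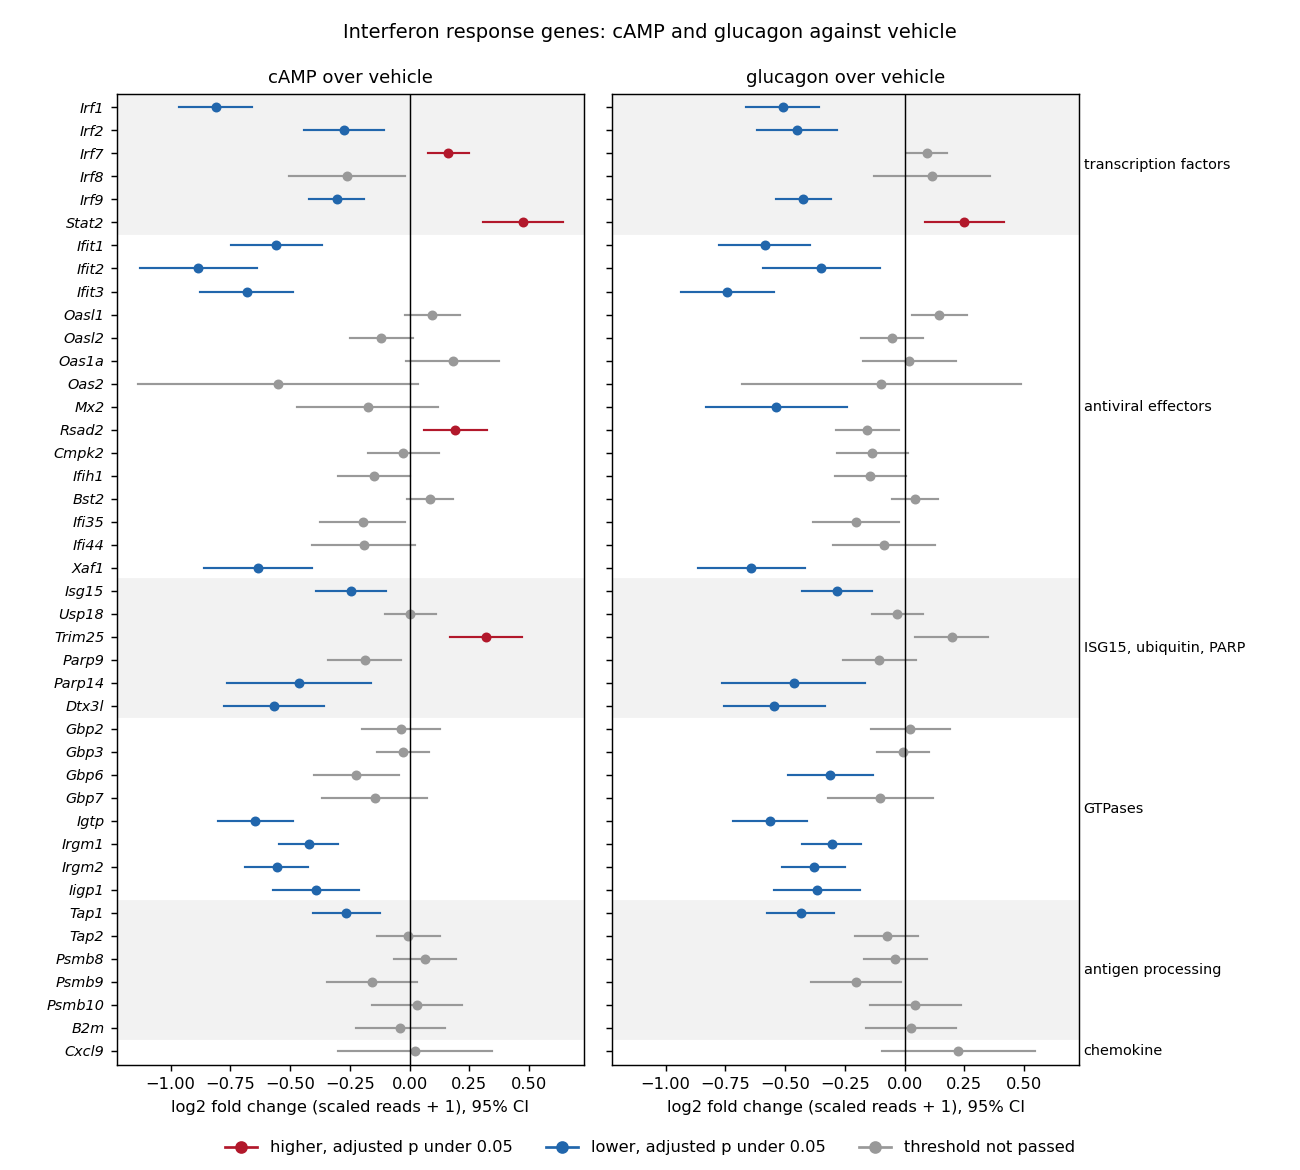
Log2 fold change of each member (points) with its 95% confidence interval (lines), for cAMP over vehicle on the left and glucagon over vehicle on the right, in order of role. Blue points are lower and red points higher at an adjusted p under 0.05. The IFIT genes, Xaf1 and the immunity-related GTPases lie left of 0 in both panels, and most antigen-processing genes lie near 0.

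Among the factors, Irf1, Irf2 and Irf9 fell and Stat2 rose with both stimuli. Irf1, the interferon gamma target that activates MHC class I and GTPase genes, had 400.3, 328.8 and 385.5 scaled reads with cAMP and 458.7, 439.5 and 471.0 with glucagon, against 660.1, 655.5 and 634.7 with vehicle. Every stimulated library was below every vehicle library, with changes of -0.81 ± 0.07 with cAMP (SE, adjusted p = 9.01e-08) and -0.51 ± 0.07 with glucagon (adjusted p = 4.36e-05). Irf9, the DNA-binding partner of the type I complex, was at 773.0 to 796.9 with cAMP and 710.9 to 747.7 with glucagon, against 933.8 to 997.0 with vehicle (log2 changes of -0.30 and -0.42). Irf2, which competes with IRF1 for its sites, was at 372.4 to 418.6 with cAMP and 327.4 to 367.7 with glucagon, against 455.4 to 531.2 with vehicle (-0.27 and -0.45). The cAMP value of Irf2 missed the threshold without cAMP library 2 (adjusted p = 0.0697) and without vehicle library c (adjusted p = 0.0814).

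Stat2, the other partner of IRF9, ran the opposite way to Irf9. It was at 1689.8 to 1984.6 scaled reads with cAMP and 1511.0 to 1654.7 with glucagon, against 1201.6 to 1507.2 with vehicle, with no overlap in either comparison. The log2 change was 0.48 ± 0.08 with cAMP (adjusted p = 0.000162). With glucagon it was 0.25 (adjusted p = 0.0326), and 0.17 without vehicle library a (adjusted p = 0.0964). The glucagon value also missed the threshold without vehicle library c or glucagon library 2 or 3 (adjusted p = 0.0569 to 0.107) and when libraries were scaled to their totals (adjusted p = 0.0735). Irf7, which drives interferon genes once phosphorylated, was at 6184.3 to 6400.9 with cAMP, against 5551.6 to 5652.5 with vehicle, a rise of 0.16 (adjusted p = 0.00529). Irf8, a factor of myeloid cells, was at 68.2 to 80.1 with cAMP and 86.6 to 100.0 with glucagon, against 79.8 to 95.5 with vehicle, and passed in neither comparison.

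Of the 15 antiviral genes, the 3 IFIT genes and Xaf1 fell with both stimuli. The IFIT proteins bind foreign RNA and block its translation. Ifit2 was at 69.5 to 71.5 scaled reads with cAMP and 97.1 to 106.5 with glucagon, against 126.8 to 135.9 with vehicle, and the 3 groups did not overlap. Its change was -0.88 ± 0.12 with cAMP (adjusted p = 1.19e-05) and -0.35 with glucagon (adjusted p = 0.0436). The glucagon value missed the threshold without any 1 of the vehicle or glucagon libraries (adjusted p = 0.0653 to 0.137).

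Ifit1 was at 321.1 to 367.7 with cAMP and 316.0 to 376.1 with glucagon, against 465.6 to 576.1 with vehicle (-0.56 and -0.59). Ifit3 was at 223.6 to 236.9 with cAMP and 211.7 to 235.9 with glucagon, against 330.7 to 405.1 with vehicle (-0.68 and -0.74). Of the 50-base stretches of Ifit3 transcripts, 51.2% also occur in its copy Ifit3b, so its reads are uncertain between the copies. Xaf1, a proapoptotic interferon target, was at 338.1 to 382.0 with cAMP and 342.4 to 380.1 with glucagon, against 514.4 to 664.3 with vehicle (-0.63 and -0.64).

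The other antiviral genes passed with at most 1 of the stimuli. Mx2, a dynamin-like GTPase, was at 102.5 to 140.4 with cAMP and 88.1 to 95.4 with glucagon, against 122.8 to 151.1 with vehicle, and fell with glucagon (-0.54, adjusted p = 0.0109) without passing with cAMP (-0.17, adjusted p = 0.405). Rsad2, which encodes viperin, rose with cAMP (0.19, adjusted p = 0.0313), a call that was lost without vehicle library b (adjusted p = 0.134) or cAMP library 2 (adjusted p = 0.147), or with library totals as the scale (adjusted p = 0.106). The RNA sensor Ifih1, the nucleotide kinase Cmpk2, the synthetases Oasl1, Oasl2, Oas1a and Oas2, the tetherin Bst2, and Ifi35 and Ifi44 passed with neither stimulus. Their log2 changes lay between -0.55 (Oas2 with cAMP) and 0.18 (Oas1a with cAMP).

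In the ISG15, ubiquitin and ADP-ribose set, Isg15, Parp14 and Dtx3l fell with both stimuli, Trim25 rose with cAMP, and Usp18 and Parp9 passed with neither. Isg15 was at 1620.3 to 1744.9 scaled reads with cAMP and 1523.0 to 1804.3 with glucagon, against 1868.1 to 2119.9 with vehicle (-0.24 and -0.28). The cAMP call of Isg15 was lost without cAMP library 2 (-0.21, adjusted p = 0.0588), and both calls were lost when only the groups compared were fitted (adjusted p = 0.0545 and 0.0705). Dtx3l, a ubiquitin ligase that pairs with PARP9, was at 516.4 to 556.2 with cAMP and 482.8 to 637.0 with glucagon, against 686.3 to 897.0 with vehicle (-0.57 and -0.54). Trim25, the ligase that activates the sensor RIG-I, was at 2749.2 to 2889.5 with cAMP and 2490.3 to 2702.4 with glucagon, against 1936.2 to 2450.6 with vehicle, and its cAMP change was 0.32 (adjusted p = 0.00258).

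Parp14 encodes an ADP-ribosyltransferase. It was at 1294.6 to 1389.4 with cAMP and 1202.2 to 1431.7 with glucagon, against 1350.6 to 2223.5 with vehicle, where library a gave the lowest value. Its changes were -0.46 with each stimulus (adjusted p = 0.0254 and 0.0316), and -0.69 with each stimulus without that library (adjusted p = 1.91e-07 and 2.58e-07). Both calls were lost without vehicle library b or c (adjusted p = 0.0961 to 0.123). The cAMP call was also lost without any 1 of the cAMP libraries (adjusted p = 0.0507 to 0.0788), and the glucagon call without any 1 of the glucagon libraries (adjusted p = 0.0502 to 0.116).

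Of the 8 GTPases, 4 passed with cAMP and 5 with glucagon, all lower. The immunity-related GTPases Igtp, Irgm1, Irgm2 and Iigp1, which defend against vacuolar pathogens in mice, fell with both stimuli, and their groups did not overlap vehicle. Igtp had 555.1, 558.6 and 492.8 scaled reads with cAMP and 520.7, 581.5 and 597.0 with glucagon, against 913.0, 776.7 and 824.8 with vehicle (-0.64 ± 0.07 and -0.56 ± 0.07). Irgm2 was at 463.3 to 471.6 with cAMP and 490.5 to 553.6 with glucagon, against 669.9 to 708.4 with vehicle (-0.56 and -0.38). Iigp1 was at 1362.1 to 1685.1 with cAMP and 1357.3 to 1643.6 with glucagon, against 1793.5 to 2064.3 with vehicle (-0.39 and -0.37).

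Irgm1, which regulates the other members of its family, had 683.5, 662.3 and 720.0 scaled reads with cAMP and 743.6, 738.0 and 758.1 with glucagon, against 982.3, 872.4 and 916.0 with vehicle. Its changes were -0.42 ± 0.06 (adjusted p = 2.52e-05) and -0.31 ± 0.06 (adjusted p = 0.00103). The guanylate-binding proteins Gbp2, Gbp3 and Gbp7, which coat pathogen vacuoles, passed with neither stimulus, with log2 changes between -0.14 (Gbp7 with cAMP) and 0.02 (Gbp2 with glucagon). Gbp6 fell with glucagon (-0.31, adjusted p = 0.0139) and had -0.22 with cAMP (adjusted p = 0.0622). The glucagon call of Gbp6 was lost without glucagon library 3 (adjusted p = 0.0675).

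Among the 6 antigen-processing genes, Tap1, a subunit of the peptide transporter, was the one that passed with the stimuli. It was at 1432.2 to 1473.9 scaled reads with cAMP and 1166.4 to 1426.3 with glucagon, against 1675.2 to 1831.8 with vehicle (-0.26 and -0.43). Its neighbour Psmb9 encodes an immunoproteasome subunit, and 225 bases separate its annotated span from that of Tap1. Strand was not used for this distance, so whether the start or the end of Psmb9 faces Tap1 was not examined. Psmb9 was at 317.8 to 374.7 with cAMP and 303.3 to 365.6 with glucagon, against 350.6 to 416.3 with vehicle. It did not pass with cAMP (-0.16, adjusted p = 0.222) or with glucagon (-0.20, adjusted p = 0.134). Tap2, Psmb8, Psmb10 and B2m had log2 changes between -0.07 and 0.06, and the chemokine Cxcl9, at 72.1 to 112.0 scaled reads with the stimuli and 75.0 to 83.6 with vehicle, also did not pass.

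Motifs were found both in members that fell and in the rest. Among the 13 members with a window that were lower with both stimuli, 7 held the ISRE core and 5 the GAS form, and among the other 21 members 9 held the ISRE core and 6 the GAS form. No test was run on these counts.

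Between the stimuli, 3 members differed, and the other 39 did not pass. Glucagon against cAMP gave 2 members higher and 1 lower, beside 1.76% of all genes higher and 2.51% lower. Ifit2 was higher with glucagon than with cAMP (0.54, adjusted p = 0.0099), and so was Irf1 (0.30, adjusted p = 0.0209). Rsad2 was lower: it had 1974.1, 1792.3 and 2067.6 scaled reads with glucagon, against 2397.8, 2656.2 and 2364.7 with cAMP (-0.35, adjusted p = 0.00212). The groups did not overlap in any of the 3 genes. The Irf1 difference was lost without cAMP library 2 (0.22, adjusted p = 0.0915), glucagon library 1 (adjusted p = 0.0648) or glucagon library 3 (adjusted p = 0.0965). A single dose and time of each stimulus was used, so the 2 are compared at those doses only.

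IL-13 moved few members: 9.52% when added to cAMP and 11.9% when added to glucagon, beside 3.9% and 5.73% of all genes. Added to cAMP, it raised 3 and lowered 1 of 42, beside 2.52% of all genes raised and 1.38% lowered. Added to glucagon, it raised 4 and lowered 1, beside 3.5% of all genes raised and 2.23% lowered. Without cAMP + IL-13 library 2, 2 members passed in the first comparison, and without glucagon library 1 or 3, 3 passed in the second. Of all genes, 292 passed in the first of these fits, against 495 with all libraries. In the second comparison 483 passed without glucagon library 1 and 453 without glucagon library 3, against 728. Usp18, Gbp6 and Igtp were the 3 that rose with IL-13 in both settings. The share of all genes raised in both was not counted, so this count has no background beside it. The median member changed by 0.10 with cAMP and 0.01 with glucagon, beside -0.00 for all genes in each.

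**Figure D3:**
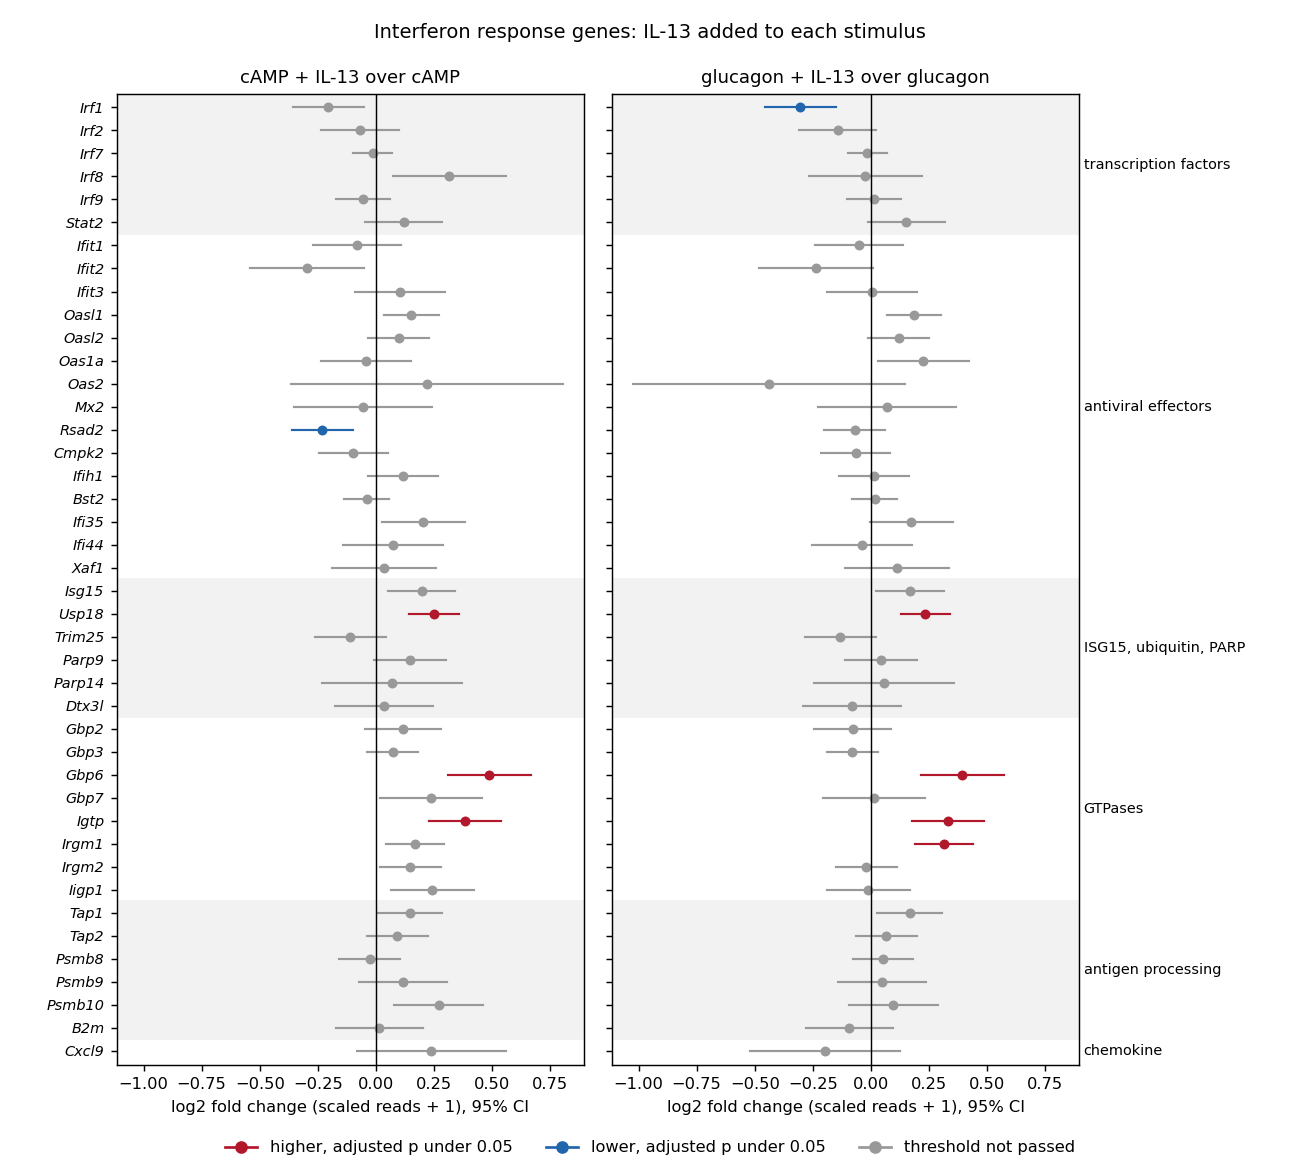
Log2 fold change of each member (points) with its 95% confidence interval (lines) when IL-13 was added to cAMP (left) and to glucagon (right), in order of role. Red points are higher and blue points lower at an adjusted p under 0.05. Usp18, Gbp6 and Igtp are red in both panels, and Irgm1 is red on the right.

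Usp18 encodes the protease that removes ISG15 from proteins and also holds back type I interferon receptor signalling. It had 1713.0, 1825.9 and 1759.8 scaled reads with cAMP + IL-13, against 1504.5, 1497.8 and 1455.1 with cAMP. It had 1730.4, 1735.0 and 1656.1 with glucagon + IL-13, against 1394.7, 1462.7 and 1500.6 with glucagon. All 6 IL-13 libraries lay above all 9 others, since vehicle had 1511.2, 1481.7 and 1455.7. The changes were 0.25 ± 0.05 (adjusted p = 0.0064) and 0.23 ± 0.05 (adjusted p = 0.00821), and the first was lost without cAMP + IL-13 library 2 (adjusted p = 0.0539).

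Gbp6 had 296.1, 339.2 and 308.2 scaled reads with cAMP + IL-13, against 217.0, 243.9 and 212.0 with cAMP. It had 266.4, 274.3 and 289.8 with glucagon + IL-13, against 229.4, 205.3 and 198.3 with glucagon. Vehicle libraries had 262.4, 256.0 and 266.1, below every IL-13 library but by a narrow margin for glucagon + IL-13. Against vehicle, glucagon + IL-13 did not pass. The call for cAMP + IL-13 against vehicle was lost in some alternatives, such as without cAMP + IL-13 library 2 (adjusted p = 0.14). The changes when IL-13 was added were 0.49 ± 0.08 with cAMP (adjusted p = 0.00174) and 0.39 ± 0.08 with glucagon (adjusted p = 0.00821). The second of these was lost without glucagon library 3 (adjusted p = 0.0513). Of the 50-base stretches of Gbp6 transcripts, 70.7% also occur in neighbouring loci that include Gbp10 and Gbp4, so the reads are uncertain between these genes.

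Igtp had 697.9, 682.9 and 712.8 scaled reads with cAMP + IL-13 and 712.5, 701.5 and 721.9 with glucagon + IL-13, which in both cases lay between the stimulus alone and vehicle without overlap. The changes were 0.38 ± 0.07 (adjusted p = 0.00405) and 0.33 ± 0.07 (adjusted p = 0.01), and the second was lost without glucagon library 1 (adjusted p = 0.061). Of its 50-base stretches, 11.8% are shared with Irgm2. Irgm2, with the like promoter window printed above, had changes of 0.15 and -0.02 and did not pass; the difference between the 2 genes was not tested.

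Irgm1 had 893.2, 940.3 and 952.9 scaled reads with glucagon + IL-13, above all glucagon libraries and within the vehicle range, a change of 0.31 ± 0.06 (adjusted p = 0.00283). With cAMP + IL-13 it had 772.7, 782.1 and 762.9, also above all cAMP libraries, but the change of 0.17 did not pass (adjusted p = 0.171).

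Irf1, already lower with the stimuli, fell when IL-13 was added to glucagon. It had 373.8, 367.5 and 365.9 scaled reads with glucagon + IL-13, below all glucagon libraries (-0.30 ± 0.07, adjusted p = 0.0167), and 320.5, 320.3 and 321.7 with cAMP + IL-13, below all cAMP libraries without passing (-0.21, adjusted p = 0.166). The glucagon call was lost without glucagon library 1 or 3 or any glucagon + IL-13 library (adjusted p = 0.0514 to 0.0771). Rsad2 had 2089.6, 2102.0 and 2121.0 with cAMP + IL-13, below all cAMP libraries (-0.23 ± 0.06, adjusted p = 0.0478), a call lost without any 1 of the 6 libraries compared (adjusted p = 0.0693 to 0.214). With glucagon + IL-13 it had 1829.3, 1834.4 and 1882.2, which overlapped the glucagon libraries (-0.07, adjusted p = 0.617). The vehicle libraries of Rsad2 ranged from 2011.2 to 2265.8, which spanned those with cAMP + IL-13. Against vehicle, Rsad2 was lower with glucagon + IL-13. This call was lost without glucagon + IL-13 library 1 (adjusted p = 0.0552) or 2 (adjusted p = 0.0503), and when only those groups were fitted (adjusted p = 0.0672).

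**Figure D4:**
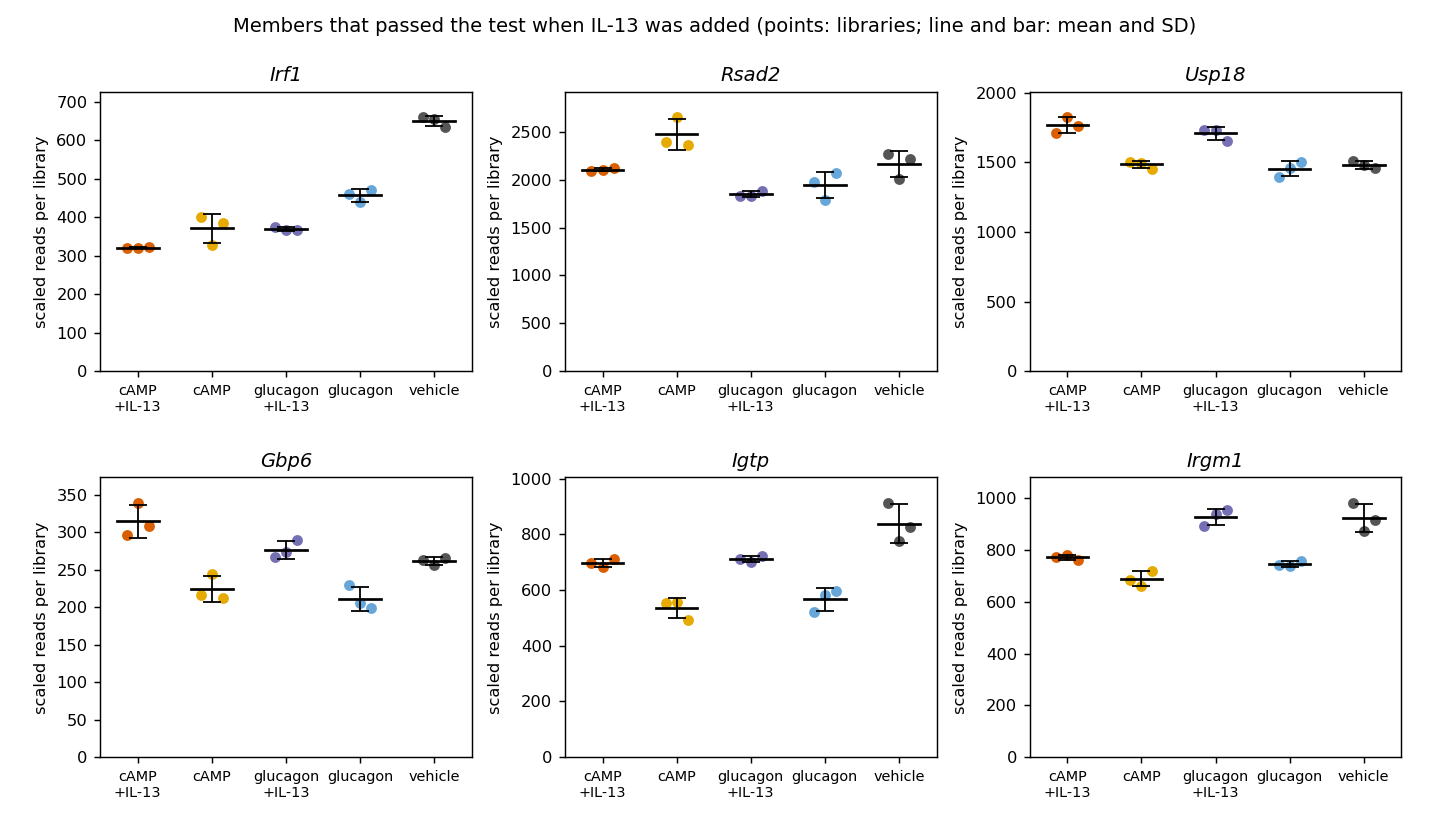
Scaled reads per library (points) with the mean and SD of each group (line and bar) for the 6 members that passed in an IL-13 comparison, groups ordered from cAMP + IL-13 to vehicle on the horizontal axis. Usp18 is level without IL-13 and higher in the 6 IL-13 libraries, Igtp with IL-13 lies between stimulus and vehicle, and Irf1 is lowest with cAMP + IL-13.

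No difference between the effects of IL-13 on the 2 stimuli was detected. By limma, 0 of 42 members and 0% of all genes passed the threshold for that difference, and at an unadjusted p under 0.05 there were 0 members and 608 of 12703 genes. The intervals were wide for the members that passed in only one setting: the difference (glucagon minus cAMP) was 0.15 for Irgm1 (95% confidence interval -0.03 to 0.32), 0.16 for Rsad2 (-0.03 to 0.35) and -0.10 for Irf1 (-0.32 to 0.12).

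Cells with a stimulus and IL-13 still differed from vehicle in many members. With cAMP + IL-13, 7 members were higher and 11 lower than with vehicle, beside 13.3% of all genes higher and 12.9% lower. With glucagon + IL-13, 3 were higher and 14 lower, beside 10.7% of all genes higher and 9.82% lower. Without vehicle library a, 6 were higher and 12 lower with cAMP + IL-13, and 4 higher and 14 lower with glucagon + IL-13, where all genes gave 1878 higher and 1884 lower in the first comparison and 1471 higher and 1448 lower in the second. Scaling to library totals instead gave 3 higher and 13 lower members with cAMP + IL-13. The 10 members lower than vehicle in all 4 stimulated groups were Irf1, Irf2, Irf9, Ifit1, Ifit2, Ifit3, Xaf1, Dtx3l, Igtp and Irgm2. The share of all genes lower in all 4 groups was not counted. With glucagon + IL-13, Igtp missed the threshold when vehicle library a (-0.17, adjusted p = 0.104), vehicle library c (adjusted p = 0.0525) or any 1 glucagon + IL-13 library (adjusted p = 0.0604 to 0.0943) was left out, and with cAMP + IL-13 it did so without cAMP + IL-13 library 2 (adjusted p = 0.0534). Ifit2 was lowest with cAMP + IL-13, at 52.3 to 63.6 scaled reads, a change of -1.18 from vehicle (adjusted p = 3.26e-07), and Irf1 changed by -1.02 there. Above vehicle with either stimulus plus IL-13 were Stat2 (0.59 with cAMP, 0.40 with glucagon), Usp18 (0.25 and 0.20) and Oasl1, at 5468.7 to 5644.2 with cAMP + IL-13 and 5644.0 to 6211.1 with glucagon + IL-13, against 4460.2 to 4963.5 with vehicle (0.25 and 0.33). Irgm1 with glucagon + IL-13 differed from vehicle by 0.01 (95% confidence interval -0.12 to 0.13).

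The rest of the pathway was followed in a list of 70 other genes, of which 59 were tested. This list too was chosen with earlier results of these data known. The interferon genes themselves were at or near 0: Ifna1, Ifna2, Ifna4, Ifnl2 and Ifnl3 had 0 in every library, and Ifnb1 and Ifng reached at most 1.9 and 1.03 scaled reads. With cAMP 17 of the 59 genes were lower and 1 was higher, beside 12.8% and 13% of all genes. With glucagon 15 were lower and 0 higher, beside 9.53% and 9.35% of all genes. IL-13 raised 7 when added to cAMP and 4 when added to glucagon, beside 2.52% and 3.5% of all genes, and lowered 0 in each.

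Among the receptors, Ifngr1, the ligand-binding chain for interferon gamma, had 1485.1, 1511.9 and 1479.3 scaled reads with cAMP and 1985.0, 2002.0 and 1959.2 with glucagon, against 3262.7, 3012.9 and 3235.4 with vehicle. The changes were -1.09 ± 0.05 (adjusted p = 5.6e-12) and -0.68 ± 0.05 (adjusted p = 6.15e-09), and the 3 groups stood apart. The accessory chain Ifngr2 rose when IL-13 was added to cAMP, with 1440.5 to 1583.2 with cAMP + IL-13, against 1090.2 to 1224.4 with cAMP (0.40, adjusted p = 0.00023), as did the kinase Jak2 (0.38, adjusted p = 0.0138). Neither Ifngr2 nor Jak2 passed when IL-13 was added to glucagon. The type I receptor chains Ifnar1 and Ifnar2 and the kinases Jak1 and Tyk2 passed in none of these comparisons.

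Of the inducing factors and sensors, Irf3, Irf5, Ddx58 (RIG-I) and Dhx58 fell with both stimuli. Irf5 had 442.1, 440.7 and 440.9 scaled reads with cAMP and 363.1, 423.9 and 436.9 with glucagon, against 851.1, 885.2 and 899.8 with vehicle (-0.99 and -1.11). With glucagon + IL-13 it had 534.6, 592.6 and 497.1, above all glucagon libraries (0.41, adjusted p = 0.00287). The feedback inhibitor Socs1 was scarce, with 14.3, 9.4 and 8.9 scaled reads with cAMP and 10.9, 16.6 and 15.5 with glucagon, against 35.7, 35.9 and 40.9 with vehicle (-1.72 ± 0.25 and -1.35 ± 0.25).

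Among other targets, Cxcl10, a chemokine for activated T cells, had 559.2, 670.5 and 561.7 scaled reads with cAMP and 367.4, 351.8 and 373.9 with glucagon, against 1581.5, 1260.0 and 1227.7 with vehicle (-1.18 and -1.88). IL-13 raised it to 748.3, 748.8 and 753.2 with cAMP + IL-13 (0.33, adjusted p = 0.0442) and to 504.2, 487.9 and 540.8 with glucagon + IL-13 (0.49, adjusted p = 0.00241), above the libraries of each stimulus alone and below those of vehicle. The immunity-related GTPase Tgtp1 had 80.5, 100.1 and 106.0 with cAMP + IL-13, against 37.7, 40.1 and 26.8 with cAMP (1.44 ± 0.18). It had 77.1, 82.7 and 64.9 with glucagon + IL-13, against 34.8, 34.4 and 47.5 with glucagon (0.94 ± 0.18). Of its 50-base stretches, 81.2% are shared with Tgtp2 and a neighbouring locus, so its reads are uncertain. Ifi47, another GTPase of that family, had 274.6, 339.7 and 315.8 with cAMP + IL-13, against 207.3, 239.2 and 221.6 with cAMP (0.47, adjusted p = 0.0304). Ifi47 did not pass when IL-13 was added to glucagon. The abundant MHC class I genes H2-K1 and H2-D1 and the restriction factor Ifitm3 passed in none of the comparisons.

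**Figure D5:**
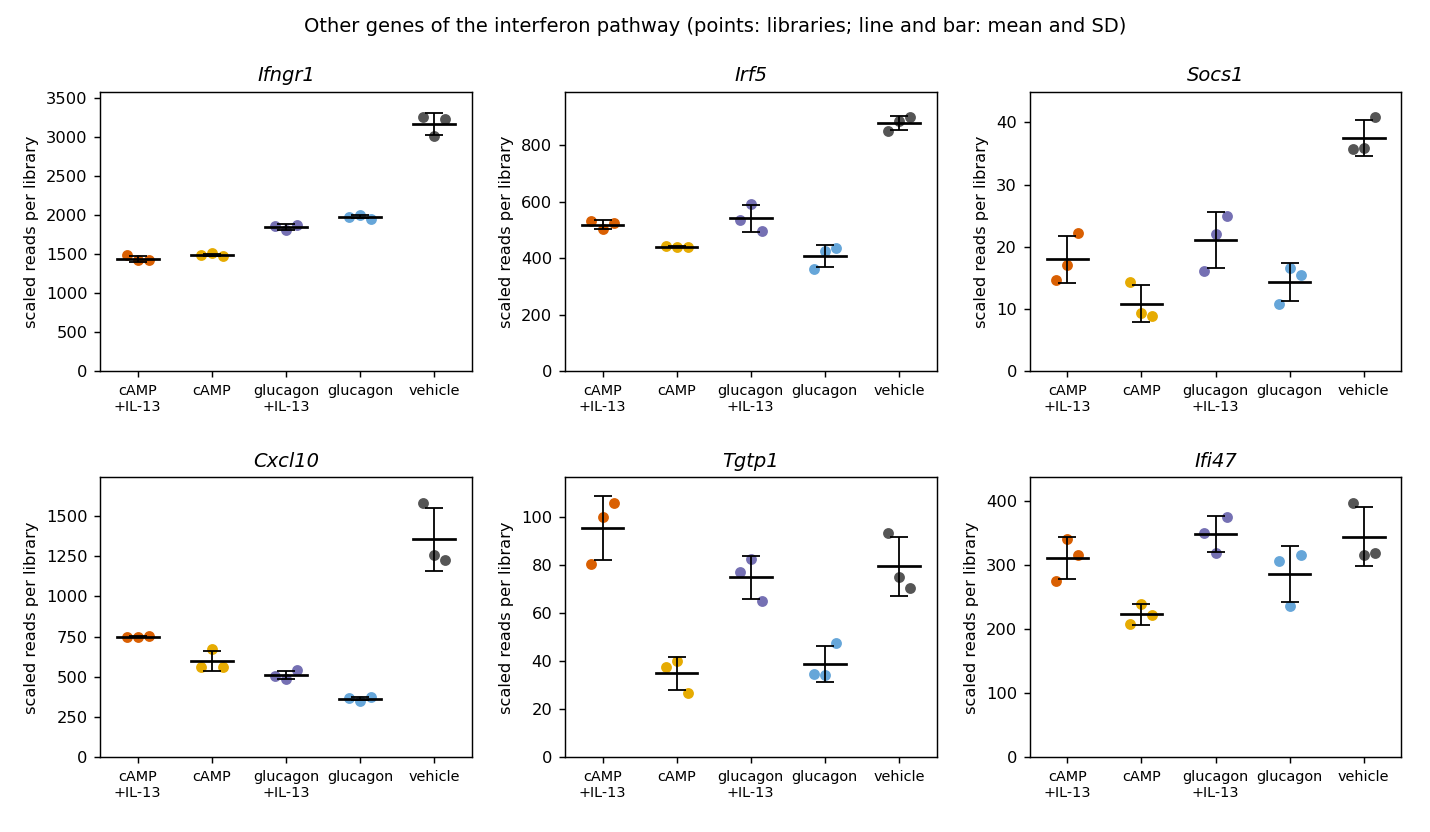
Scaled reads per library (points) with the mean and SD of each group (line and bar) for 6 pathway genes outside the 42 members, chosen after their values were seen. Ifngr1, Irf5, Socs1 and Cxcl10 lie below vehicle in every stimulated library, and Cxcl10 and Tgtp1 are higher with IL-13 than with the same stimulus alone.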

How the data were processed

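RNA of 15 mouse primary hepatocyte libraries in 5 groups of 3 was sequenced as single-end reads from a TruSeq kit. Per the submitters' processing notes, reads were aligned to mm10 with TopHat 1.3.2 and quantified with Cufflinks 2.0.2, and the authors called genes with edgeR. The gene annotation and strand setting are not given in the sources used here, so reads of overlapping or antisense genes may be mixed.

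The table used for the tests is a signal deposited by the authors: each gene's estimated reads times a factor fixed for the library. Undoing the factor made 95.3% to 98.7% of the values above 0 whole to within 0.1. The FPKM values were computed by the authors from the same libraries and served for levels between genes and as an alternative. Groups came from titles and treatment labels. A description field calls the cAMP libraries controls, and the titles were followed. Vehicle columns carry no sample's name, and the letters a, b and c are used for them. The labels and methods name different strains, and the strain was not used. No 2 libraries shared more than 0.0472% of their values, so none was treated as a copy.

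The members and gene lists were chosen with earlier results of these data known. A gene was tested if 3 or more libraries had 10 or more scaled reads (12703 of 24347). limma 3.58.1 (R 4.3.3) was run on log2(scaled reads + 1) in the 15 libraries together, with group as the term, a variance trend and robust weights. P-values were adjusted by Benjamini-Hochberg over all genes tested at 0.05 in each of 8 comparisons. Fold changes on this scale understate changes of low genes. A member got its value in all 15 libraries if it passed in an IL-13 comparison, or with an absolute log2 change of at least 1 against vehicle with a stimulus alone. The vehicle values of Rsad2 are an exception and are given as a range. Uncertain reads were described by the share of 50-base transcript stretches (GENCODE, GRCm38) found in other genes, and gene and window positions are on GRCm38. Alternatives changed the scaling, pseudocount, filter, quantity, variance model and libraries.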

Additional observations from a re-analysis of the deposited data

How the results depend on the processing

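No value of a called member changed direction under any alternative. Fitting only the groups compared gave 9 members called when IL-13 was added to cAMP, against 4 in the fit of all groups, and the 9 include the 4. Leaving out 1 library at a time gave 2 to 5 members called when IL-13 was added to cAMP, and 3 to 6 when it was added to glucagon, against 5 with all libraries. In the same fits 282 to 765 of all genes passed in the first comparison, against 495. In the second, 430 to 1218 passed, against 728. Against vehicle, the alternatives gave 14 to 23 members called with cAMP and 13 to 20 with glucagon. The same alternatives called 2042 to 3668 of all genes with cAMP, against 3272, and 1294 to 3098 with glucagon, against 2399. Over all genes, fitting only the groups compared called 1294 with glucagon against vehicle, against 2399 in the fit of all groups, 1551 with glucagon + IL-13 against vehicle, against 2613, and 963 when IL-13 was added to cAMP, against 495. Scaling to library totals moved the split of all genes with cAMP to 1265 higher and 2147 lower, against 1648 and 1624 with the deposited scaling, with cAMP + IL-13 to 1144 and 2299, against 1686 and 1642, and with glucagon to 956 and 1502, against 1188 and 1211. The cause of these shifts was not tested. Psmb10, an immunoproteasome subunit, passed when IL-13 was added to cAMP in the fit of only those groups (0.27, adjusted p = 0.000398), without vehicle library a (adjusted p = 0.012) and without vehicle library c (adjusted p = 0.0343). Oasl1 passed when IL-13 was added to glucagon in the fit of only those groups (0.18, adjusted p = 0.0473) and without vehicle library a, b or c (adjusted p = 0.0235 to 0.0483).

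With the replicate number as a block, 5 members passed for IL-13 added to cAMP, 6 for IL-13 added to glucagon, 0 for the difference between these effects and 3 for glucagon against cAMP. The members gained were Psmb10 (IL-13 added to cAMP, adjusted p = 0.00915) and Oasl1 (IL-13 added to glucagon, adjusted p = 0.0355). Over all genes the block called 661, 1009, 1 and 739 in these comparisons, against 495, 728, 0 and 543 without it. Of 18 same-numbered pairs of libraries, 6 had deviations correlated above 0.1 (r = -0.47 to 0.49, against -0.55 to 0.54 for other pairs). These values do not settle whether same-numbered libraries were paired. No paired analysis was possible for the comparisons with vehicle because no vehicle column could be tied to a named sample, so the numbers in those column names could not be matched to the other groups. With 3 libraries per group, the standard error was the largest among the members for Oas2 (0.28 with cAMP against vehicle).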
